A study of Saccharomyces cerevisiae with 29 samples.

Results

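Flocculins are glycoproteins of the yeast cell wall that let cells stick to each other and to surfaces. The data concern the 5 flocculin genes of Saccharomyces cerevisiae, FLO1, FLO5, FLO9, FLO10 and FLO11, as they are annotated on L03, the reference sequence made for the strains of this series. The first 4 were found by gene name and FLO11 by its locus tag, YIR019C, since the annotation lists it as MUC1. They are 5 of 5857 protein-coding genes on 16 chromosomes. The family was selected on coding length compared with the stated protein length, because FLO1 and FLO9 are among the coding sequences that fall shortest of the protein stated for them.

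The series holds 29 libraries of 14 strains, made by HydEn-seq, in which alkali cuts genomic DNA at ribonucleotides and the new DNA ends are sequenced. Each of 7 polymerase backgrounds was sequenced without RNH201, which encodes the catalytic subunit of RNase H2 (strain labels rnh201-delta, pol1-L868M rnh201-delta, pol1-Y869A rnh201-delta, pol2-M644G rnh201-delta, pol2-M644L rnh201-delta, pol3-L612G rnh201-delta and pol3-L612M rnh201-delta), and with it (pol1-L868M, pol1-Y869A, pol2-M644G, pol2-M644L, pol3-L612G, pol3-L612M and WT). The sequenced ends are not part of what follows, and strains are therefore not compared. Every value is a position or a length on 1 annotated sequence, L03 (ref_v2), with no replicate and no estimate of error.

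Flocculins share a general plan in which an outer lectin-like or adhesive domain at the amino end is carried away from the wall by a long middle part rich in serine and threonine, and the carboxyl end is tied to the wall through a glycosylphosphatidylinositol (GPI) anchor. The middle part is known for tandem repeats, whose number varies between strains of this species. Flo1p, Flo5p, Flo9p and Flo10p bind mannose chains on neighbouring cells and drive flocculation, the clumping of cells in liquid, whereas Flo11p serves adhesion to surfaces, invasive growth, pseudohyphal growth and biofilms. Most of these genes are silent in common laboratory strains. The repeats themselves could not be examined, because sequences of L03 or of these proteins were not analysed here.

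FLO1 (YAR050W), whose product gives flocs that resist heat but not chymotrypsin, lay on chromosome I from 199940 to 204047 on the plus strand. FLO5 (YHR211W), whose product gives flocs that resist chymotrypsin but not heat, lay on chromosome VIII from 525398 to 528625 on the plus strand. FLO9 (YAL063C), described in the annotation as a lectin-like relative of Flo1p, lay on chromosome I from 24001 to 27680 on the minus strand. FLO10 (YKR102W), described in the same way, lay on chromosome XI from 645988 to 649497 on the plus strand. FLO11 (YIR019C) lay on chromosome IX from 388765 to 392868 on the minus strand. Each gene was a single coding exon as long as its gene feature, with no untranslated region annotated, and all 5 carry a qualifier of experimental evidence. The shares of all genes with these properties are not given here, so nothing particular to the family is read from them.

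Of the 5 genes, FLO1 and FLO9 were shorter than their stated proteins require, and FLO5, FLO10 and FLO11 had the exact length. The required length is 3 bp for each residue of the protein length stated in the annotation, plus a stop codon. FLO1 had 4108 bp of coding sequence against 4614 bp required for 1537 residues, a shortfall of 506 bp. That is 11.0% of the required length. FLO9 had 3680 bp against 3969 bp required for 1322 residues, a shortfall of 289 bp or 7.28%. Both are negative differences of coding minus required length (-506 bp and -289 bp). Whether they come from the sequence of L03, its assembly or the transfer of features to it was not tested.

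Neither of the short genes was a whole number of codons. The coding sequence of FLO1 held 1369 codons with 1 base left over, and that of FLO9 held 1226 codons with 2 bases left over. The shortfalls correspond to about 169 and about 96.3 codons, and neither is a whole number of codons. FLO5 had 3228 bp for 1075 residues, FLO10 had 3510 bp for 1169 residues and FLO11 had 4104 bp for 1367 residues, each with 0 bp of difference. FLO1 exceeded FLO5 by 880 bp of coding sequence in L03, where the stated proteins require an excess of 1386 bp.

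These differences chose the family, so the share over all coding sequences is given as background only. Coding and required length were unequal in 91 of 5860 coding sequences (1.55%), and 49 of these were shorter than required (0.836% of all). Among the 91 the median size of the difference was 3.00 bp, with quartiles of 1.00 bp and 16.0 bp, and 62 differed by 3 bp or less. Only 15 coding sequences (0.256%) were shorter by over 30 bp. FLO1 and FLO9 are 2 of these 15, and 5 others are Gag or Gag-Pol genes of retrotransposons. The next larger shortfall above FLO1 was that of LEU2, an enzyme gene of leucine synthesis, at 1037 bp. YIL014C-A, a short frame of unknown function, stood between the flocculins with 305 bp missing, and SRD1, whose product acts in processing of ribosomal RNA precursors, stood just after FLO9 with 285 bp missing. These genes lacked a larger share of their length. LEU2 had 58 bp of 1095 bp required, YIL014C-A 10 bp of 315 bp and SRD1 381 bp of 666 bp. FLO1 had 4108 bp of 4614 bp, and FLO9 had 3680 bp of 3969 bp. A coding length that is no whole number of codons was found in 61 of 5860 coding sequences (1.04%).

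**Figure D1:**
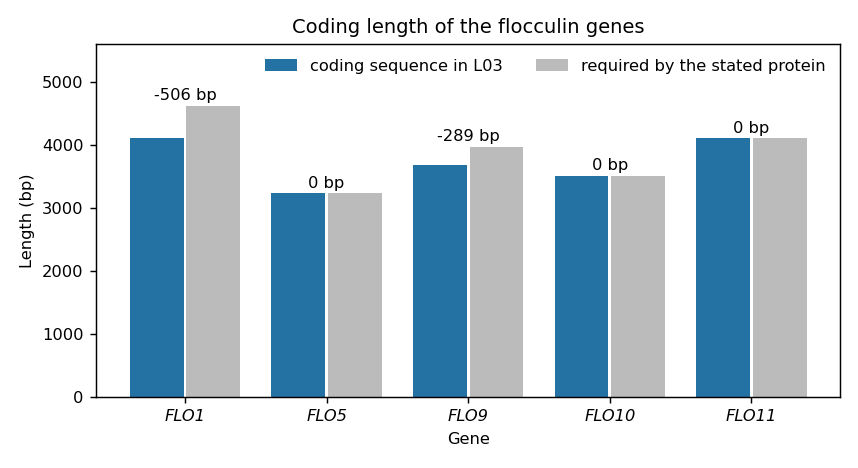
Coding length in the L03 annotation (blue) and the length required by the stated protein (grey), in bp, for each flocculin gene, with the difference of coding minus required length above each pair. FLO1 and FLO9 fall short by 506 bp and 289 bp, and the bars of FLO5, FLO10 and FLO11 are equal.

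All 5 genes were long. Against a median coding length of 1224 bp over 5857 genes, with quartiles of 714 bp and 1893 bp, the shortest of them, FLO5, was longer than 92.6% of genes. FLO10 was longer than 94.3%, FLO9 than 95.1%, FLO11 than 96.2% and FLO1 than 96.3%. The coding sequences of FLO1 and FLO9, though shorter than required, thus still ranked among the long genes of L03.

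The flocculin genes stood near chromosome ends, with FLO11 the farthest in. FLO10 lay 16.9 kb from the right end of chromosome XI, measured from the gene edge nearest to the end. FLO1 lay 21.0 kb from the right end of chromosome I and FLO9 lay 24.0 kb from its left end, so that both arms of this chromosome, 225 kb long, carry a flocculin gene. FLO5 lay 34.0 kb from the right end of chromosome VIII, and FLO11 lay 46.2 kb from the right end of chromosome IX. The median distance over all genes was 206 kb. Within 25 kb of an end were 3 of the 5 flocculin genes, where 309 of 5857 genes lay (5.28%), and within 50 kb were all 5, where 675 genes lay (11.5%). The annotation gives X element core sequences, a part of every yeast chromosome end, at 16.0 kb from FLO10, 20.8 kb from FLO1, 23.2 kb from FLO9, 27.5 kb from FLO5 and 45.4 kb from FLO11. Of these 5 ends, only the right end of chromosome VIII has an annotated Y′ element, the longer repeat of some yeast chromosome ends, which adds to the distance of FLO5.

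The 4 lectin-like genes were transcribed toward their chromosome end. FLO9 is on the minus strand of a left arm, and FLO1, FLO5 and FLO10 are on the plus strand of right arms. FLO11, on the minus strand of a right arm, was transcribed toward the centre of its chromosome. Among the 675 genes within 50 kb of an end, 361 were transcribed toward that end (53.5%). With 5 genes, of which several may be copies of each other, no test of this count was made.

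A long stretch without genes annotated on L03 preceded every flocculin gene. At FLO11 the RefSeq table for genome version R64 lists further genes there, named below, which are not counted here. The gap from the start codon to the nearest gene or pseudogene upstream was 4043 bp for FLO1, 3851 bp for FLO10, 3654 bp for FLO5, 3618 bp for FLO11 and 3598 bp for FLO9. The 5 gaps thus lay within 445 bp of each other. Over 5850 genes with an upstream neighbour the median was 443 bp, with quartiles of 283 bp and 717 bp. Only 19 genes, FLO1 included, had an upstream gap as long as that of FLO1, and 36 had one as long as that of FLO9, the shortest of the family. A gap of 3 kb or more, a limit set after the values were seen, was found for 5 of 5 flocculin genes and for 62 of 5850 genes (1.06%).

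Genes near chromosome ends have wider spacing, and the flocculin gaps were long beside theirs as well. Within 50 kb of an end the median upstream gap was 597 bp over 668 genes, with an upper quartile of 1279 bp, and 39 of them had a gap of 3 kb or more (5.84%). Within 25 kb the median was 977 bp over 302 genes. Every flocculin gap was above the upper quartile of 1928 bp there. All 5 flocculin genes are themselves counted in the numbers within 50 kb, and 3 of them in those within 25 kb.

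**Figure D2:**
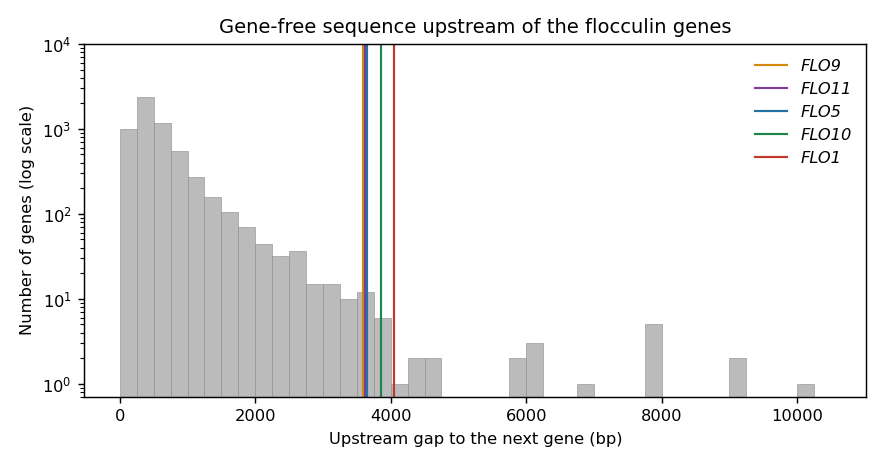
Number of genes (log scale) by the length of the gap to the next annotated gene upstream, in bp, for 5850 genes in grey, with a coloured line at each flocculin gene. The 5 lines stand between 3598 bp and 4043 bp, in the thin right tail of the distribution.

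The neighbours upstream differed from gene to gene. The upstream neighbour of FLO1 was SWH1, for a relative of oxysterol-binding proteins, on the same strand. That of FLO10 was SIR1, a gene of silencing at the mating-type loci, also on the same strand. FLO5 faced YHR210C, FLO9 faced GDH3, which encodes a glutamate dehydrogenase, and FLO11 faced MRS1, a gene for splicing of mitochondrial introns. These last 3 neighbours are transcribed in the opposite direction, so the gap is shared between 2 divergent genes. In the gene order of the RefSeq table for R64, in which all 5 locus tags were found, nothing stood between FLO1, FLO5, FLO9 or FLO10 and the same upstream neighbour. Between FLO11 and MRS1 that table lists the reading frame YIR020C and the noncoding RNA genes ICR1 and PWR1, known as regulators of FLO11 that overlap its long promoter. These 3 are not among the neighbours used here, so the gap of FLO11 counts L03 features only.

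The sequence past the stop codon was long and without genes as well, though less so at FLO9. FLO1 had 10081 bp to the pseudogene YAR061W and FLO5 had 10122 bp to YHR212W-A. Of 5834 genes with a downstream neighbour, no other had a downstream gap as long as either of these. FLO11 had 3870 bp to YIR018C-A, FLO10 had 3214 bp to NFT1, a gene for a transporter of the ABC family, and FLO9 had 1313 bp to the small frame YAL063C-A. The gap of FLO9, the shortest of these, was longer than that of 96.1% of genes. The median over all genes was 297 bp. Over 652 genes within 50 kb of an end it was 364 bp, with an upper quartile of 892 bp. The flocculin genes are themselves counted in these numbers. FLO11 thus had gaps of like length on both sides, 3618 bp upstream and 3870 bp downstream.

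**Figure D3:**
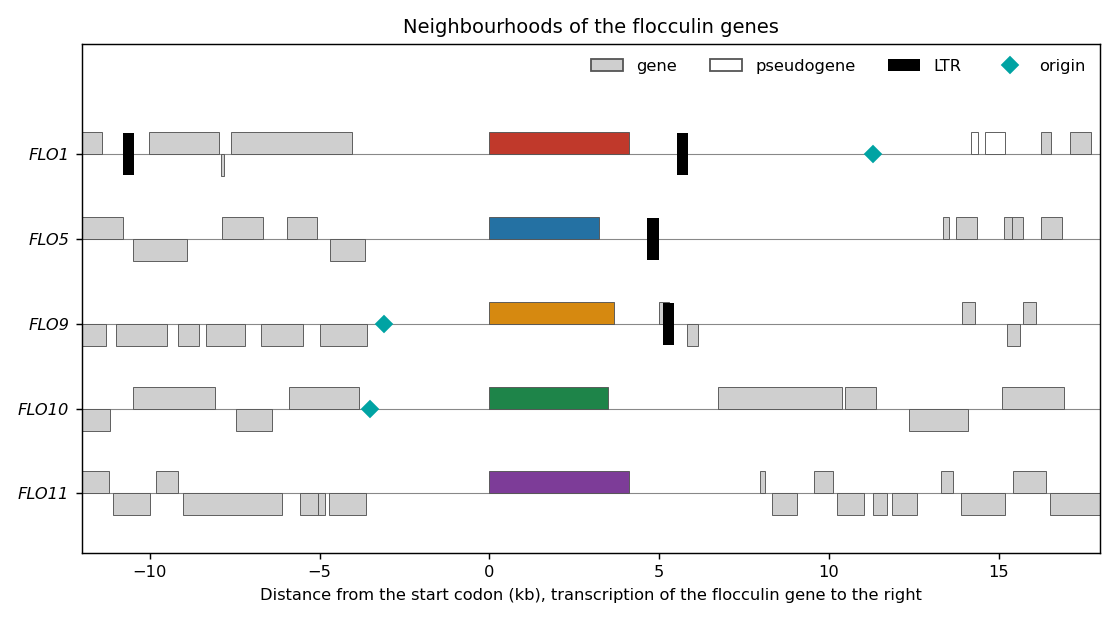
Annotated features around each flocculin gene, against distance from its start codon in kb, with the flocculin gene (coloured) transcribed to the right. Bars above the line are genes on the same strand and bars below it are genes on the other strand, black bars are long terminal repeats and diamonds are origins. Each gene has a gap of 3598 bp to 4043 bp on its left to the next gene annotated on L03. FLO1, FLO5 and FLO9 have a repeat shortly after their end.

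A long terminal repeat (LTR) of a retrotransposon stood at nearly the same place after 3 of the 5 genes. LTRs are the end repeats of Ty elements, often left alone after the rest of the element is lost. YARCDELTA8 began 1420 bp past the stop codon of FLO1, YHRCDELTA14 1429 bp past that of FLO5 and YALWDELTA1 1446 bp past that of FLO9. All 3 lay on the strand opposite to the flocculin gene, and they were 331 bp, 331 bp and 323 bp long. The distances span 26 bp. FLO10 and FLO11 had no such repeat, with the nearest LTR past the stop codon at 15.6 kb and 52.7 kb and on the same strand as the gene. An opposite-strand LTR within 2 kb past the stop codon, a limit set after these values were seen, was the nearest LTR for 123 of 5857 genes (2.10%). Within 50 kb of an end this held for 11 of 675 genes (1.63%). FLO1, FLO5 and FLO9 are themselves counted among the 123 and among the 11.

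From there outward, features of the right arms of chromosomes I and VIII could be paired in 6 cases in the same order. The members of the pairs downstream of FLO1 are YARCDELTA8, YAR061W, YAR062W, YAR064W, YAR066W and PHO11. Those downstream of FLO5 are YHRCDELTA14, YHR212W-A, YHR213W, YHR213W-B, YHR214W and PHO12. PHO11 and PHO12 encode acid phosphatases secreted under phosphate starvation, and YAR066W and YHR214W are annotated as putative GPI proteins. In all 6 pairs the 2 features had the same length and strand. From the gene outward the first 4 pairs were 331 bp, 204 bp, 597 bp and 300 bp long, and PHO11 and PHO12 were 1404 bp long. YAR061W and YAR062W are typed as pseudogenes, and their counterparts YHR212W-A and YHR213W as genes. The pairs were matched after the annotation was seen, by order and length and not by sequence, so their equal lengths follow in part from the choice. Other features on this stretch have no partner. On the FLO1 side these are the gene YAR068W and the origins ARS111 and ARS112. On the FLO5 side they are the gene YHR213W-A, between YHR213W and YHR213W-B, a retrotransposon with its 2 LTRs and 2 genes, and past it the genes YHR214C-D and YHR214C-E.

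The spacing matched closely up to the last pair. The distance past the stop codon was 10081 bp for YAR061W against 10122 bp for YHR212W-A, 10490 bp for YAR062W against 10531 bp for YHR213W, and 12139 bp for YAR064W against 12180 bp for YHR213W-B. Each of these differs by 41 bp, with the feature of the FLO1 side nearer. YAR066W stood at 12989 bp and YHR214W at 13031 bp, a difference of 42 bp. PHO11, however, began 17397 bp past FLO1, and PHO12 began 23479 bp past FLO5. Between YHR214W and PHO12 the annotation holds the retrotransposon YHRCTY1-1, from 543616 to 549643 on chromosome VIII, which is 6028 bp long. The distance from YAR066W to PHO11, across YAR068W, is 3796 bp, and that from YHR214W to PHO12 without this element is 3808 bp, or 12 bp more. The first 5 pairs thus differed in position by 9 bp to 42 bp, where the coding sequences of FLO1 and FLO5 differed in length by 880 bp.

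**Figure D4:**
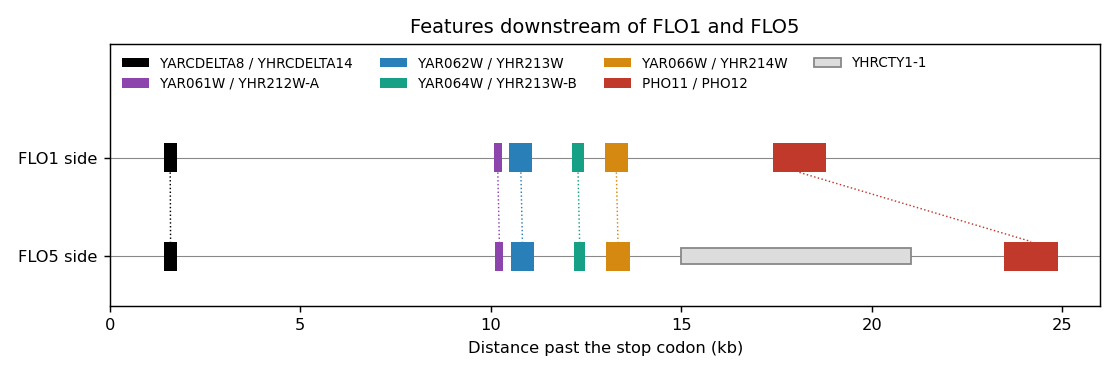
Position past the stop codon, in kb, of 6 pairs of features downstream of FLO1 (upper line) and FLO5 (lower line), with dotted lines joining each pair and the retrotransposon YHRCTY1-1 in grey, without the other unpaired features. The members of each of the first 5 pairs stand within 42 bp of each other. PHO12 stands farther out than PHO11, past the element of 6028 bp.

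FLO9, on the other arm of chromosome I, had the LTR but other features beyond it. After YALWDELTA1 came YAL064W, which began 2148 bp past the stop codon of FLO9. No gene lay between that frame and YAL064C-A, at 10257 bp, followed by YAL064W-B at 11574 bp and YAL065C at 12049 bp. YAL065C, 387 bp long and on the same strand as FLO9, is annotated as having homology to FLO1 and as a possible pseudogene. SEO1, whose product is a putative permease, followed at 14984 bp.

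The list of 4 flocculin-like reading frames without a standard name held YAL065C, YAR061W, YAR062W and YHR213W. Each stood farther out on the arm of a flocculin gene and on its strand. YAR062W lay 9.87 kb and YAR061W 10.7 kb from the right end of chromosome I, YAL065C lay 11.6 kb from its left end, and YHR213W lay 22.9 kb from the right end of chromosome VIII. The 2 of them with a stated protein, YAL065C and YHR213W, had coding sequences of the required length. None of the 4 is on the chromosome of FLO10 or FLO11.

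Origins were at varied distances. A gene transcribed away from an origin runs in the direction of the replication fork that leaves it, so that the strand read by RNA polymerase is the template of the leading strand in that fork. DNA polymerase epsilon makes most of the leading strand, and DNA polymerases alpha and delta make the lagging strand. FLO9 was nearest to an origin, with 4.94 kb between its midpoint and that of ARS104. FLO10 was 5.26 kb from ARS1123, FLO1 was 9.26 kb from ARS111, FLO11 was 20.3 kb from ARS922 and FLO5 was 25.1 kb from ARS822. Over all genes the median was 13.5 kb and the quartiles were 6.29 kb and 24.1 kb, so the family spread over the whole of the usual range.

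FLO5, FLO9, FLO10 and FLO11 were transcribed away from the nearest origin, and FLO1 was transcribed toward it. These 4 of 5 compare with 2906 of 5857 genes (49.6%). Direction and place on the chromosome arm are not separate facts here. For FLO5, FLO9 and FLO10, which point to the chromosome end, the nearest origin was on the inner side. For FLO1 it was on the outer side, and FLO11 points inward with its nearest origin on the outer side. None of the 9 flanking origins of these genes carries a qualifier of experimental evidence, nor do most of the 274 origins of the file, and whether they fire was not examined.

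The origins of FLO9 and FLO10 were inside the long upstream gap. ARS104, from 30658 to 30895 on chromosome I, ended 2977 bp before the start codon of FLO9, and ARS1123, from 642359 to 642605 on chromosome XI, ended 3382 bp before that of FLO10. An origin midpoint inside the upstream gap was found for 2 of the 5 flocculin genes and for 193 of 5850 genes (3.30%). These counts are over gaps of unlike length, with a median of 3654 bp for the flocculin genes and 443 bp for all genes. The share among genes with gaps of like length is not given here. FLO10 had no annotated origin on its outer side, and the stretch from ARS1123 to the chromosome end was 24.0 kb. The other members lay between 2 origins, 22.5 kb apart around FLO9 (ARS103 and ARS104), 35.3 kb around FLO1 (ARS110 and ARS111), 54.3 kb around FLO5 (ARS822 and ARS824) and 54.7 kb around FLO11 (ARS920 and ARS922). The flanking origins of FLO1 and FLO5 were placed differently. ARS111 stands 6827 bp past the stop codon of FLO1, inside the gene-free stretch, and no origin is annotated in the like stretch past FLO5.

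**Figure D5:**
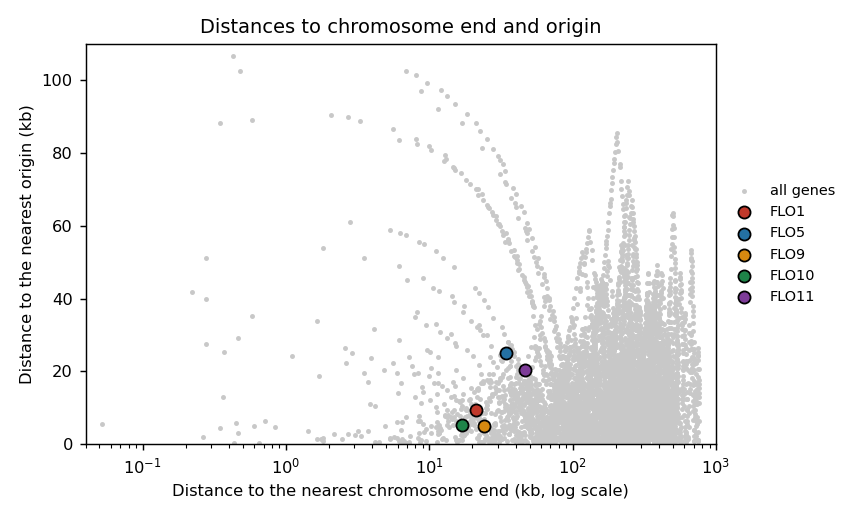
Distance to the nearest origin in kb against distance to the nearest chromosome end in kb (log scale), for 5857 genes in grey and the 5 flocculin genes in colour. The flocculin genes lie between 16.9 kb and 46.2 kb from an end and between 4.94 kb and 25.1 kb from an origin.

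Other features within 25 kb of each gene varied in number. FLO1 had 14 other protein-coding genes, 4 LTRs, 2 tRNA genes, 3 origins and 2 pseudogenes. FLO5 had 20 protein-coding genes and 3 LTRs, FLO9 had 20 and 1, and FLO10 had 12 and 1. FLO11 stood in the densest surroundings, with 29 protein-coding genes and 0 LTRs. The stretch around FLO1, FLO9 and FLO10 is cut short by the chromosome end, so these counts cover less sequence there.

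Of 25 listed regulators of flocculin genes, among them FLO8, MSS11, TEC1 and STE12, which activate FLO11 or its relatives, and SFL1, NRG1, TUP1 and CYC8, which repress them, all 25 had coding sequences of the required length. Over all coding sequences, 1.55% differed from the required length. The median distance of the regulators to a chromosome end was 194 kb, where all genes had 206 kb. Within 25 kb lay 1 of 25, where 5.28% of all genes lay. That was RPD3, which encodes a histone deacetylase, at 18.0 kb, and the next was RIM101, a gene of the response to alkaline pH, at 51.1 kb. The median upstream gap was 939 bp, where all genes had 443 bp. A gap of 3 kb or more was found for 2 of 25, where 1.06% of all genes had one. These were KSS1 (a mitogen-activated kinase, 7930 bp) and NRG1 (3272 bp). FLO8 had 2400 bp of coding sequence for 799 residues. The annotation says of this gene that most laboratory strains, S288C included, carry a mutation in it, and whether L03 does was not examined.

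Of 33 listed genes for other cell wall and surface glycoproteins, 31 had the required length, where 1.55% of all coding sequences differed from it. WSC2, a sensor of wall stress, was 3 bp short (-3 bp), and ECM33, a GPI protein of the wall, was 1 bp longer. Their median distance to an end was 174 kb. Within 25 kb were 2 of 33, DAN3 at 3.77 kb and EGT2 at 24.0 kb, where 5.28% of all genes lay, and within 50 kb were 6 of 33, where 11.5% of all genes lay. Neither list was tested against all genes. The upstream gaps ran from 30 bp to 2728 bp with a median of 1104 bp, where all genes had 443 bp. Of the 33 genes 0 reached 3 kb, where 1.06% of all genes did. FIG2, which encodes a wall protein of mating cells and at 4830 bp is longer than any flocculin gene in L03, had a gap of 587 bp. FIT1, a wall mannoprotein of iron uptake that is in neither list and was singled out after its value was seen, was shorter than required by 33 bp (-33 bp). It is among the 15 coding sequences shorter by over 30 bp, and none of the 33 listed genes is.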

How the data were processed

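Per the file header, the authors based the deposited L03 annotation on S288C genome version R64-1-1 of the Saccharomyces Genome Database. By what steps they did so is not stated in these sources. Its values are other than read counts: per the file header and columns, the deposited file gives feature starts and ends in bp, and protein lengths in residues. All coordinates are on L03, numbered from 1. Genes were gene features with an mRNA, less 2 dubious frames. Gaps are bases between a gene and the nearest gene or pseudogene; origin distances join midpoints. The R64 table of RefSeq was used for names and gene order. The rule for named genes took the 5 flocculins, the neighbours and origins on each side, from each list the members of another length and the 2 nearest to an end, and the shortfalls next in size. The members, lists and rule were chosen with earlier results of these data known. Other genes named with values (the LTRs, the rows of features past FLO1, FLO5 and FLO9, KSS1, NRG1, FIG2, FLO8 and FIT1) were chosen after their values were seen. No test was made, since the values have no replicates and the family was chosen on them. Length differences, gaps on the low-coordinate side and nearest origins with their direction were checked on an artificial annotation with known answers. The other measures were not checked in this way. Work was done in Python 3.11.15 with matplotlib 3.10.9.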

Additional observations from a re-analysis of the deposited data

How the results depend on the processing

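Of 47 alternative values, 19 equalled the value reported and 0 changed direction. Most of the 47 are distances, gaps, counts or shares, which have no direction to change. The gene feature is as long as the coding sequence in all 5 genes, so using its length could not alter their differences. Without the stop codon in the required length, the differences were -503 bp for FLO1, -286 bp for FLO9 and 3 bp each for FLO5, FLO10 and FLO11. From the gene midpoint, the chromosome end was 23.0 kb from FLO1, 35.6 kb from FLO5, 25.8 kb from FLO9, 18.7 kb from FLO10 and 48.3 kb from FLO11. Between nearest edges, the origin distances were 6.83 kb, 23.4 kb, 2.98 kb, 3.38 kb and 18.1 kb in that order, and from the 5′ end 11.3 kb, 23.5 kb, 3.10 kb, 3.51 kb and 18.3 kb. Counting only differences of over 30 bp left 16 of 91 coding sequences. Within 50 kb of an end were 5 flocculin genes instead of 3. The alternatives for the upstream gap were added after the data were seen. Taking any annotated feature as a neighbour shortened the gap of FLO9 to 2977 bp and that of FLO10 to 3382 bp. With it 4 of 5 flocculin genes kept 3 kb or more, where 0.785% of all genes had such a gap. With only protein-coding neighbours 5 of 5 had such a gap, where 1.80% of all genes did. The moved values follow from how each alternative measures. The protein length from RefSeq, the protein identities and the repeats were not run, because no protein sequences were used here. No paired analysis was possible because the values come from 1 annotation and not from libraries, which also leaves read depth without a part in them.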
